A study of Mus musculus with 2 samples.

Results

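The 8 troponin genes were followed in a comparison of mouse heart with mouse embryonic fibroblasts (MEF), connective-tissue cells grown in culture from embryos. The members are Tnnt1, Tnnt2, Tnnt3, Tnni1, Tnni2, Tnni3, Tnnc1 and Tnnc2, and every probe that the platform annotation gives one of these symbols was taken, which came to 12 of 41174 probes and 8 of 19532 genes. All 8 genes had at least 1 probe, and none was removed by a filter. The study held 2 two-colour Agilent oligonucleotide arrays. Each paired total RNA of an untreated, uncultured mouse heart, numbered heart-1 or heart-2 and labelled with Cy3, with RNA of MEF kept in serum-containing medium and labelled with Cy5. Genotype, strain and age are not stated for either group, nor whether the hearts came from separate animals or whether the MEF RNA was a single preparation, so a p-value here reflects how far these 2 arrays spread, possibly for technical reasons alone.

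Values are log2 ratios, read as heart over MEF, with 0 meaning equal signal in both channels. The ratio's order of channels is not stated, and this direction is likely rather than certain. It was read from the study's stated comparison of heart with MEF and from lists without any troponin. The 13 measured heart genes had medians of 5.51 (heart-1) and 5.59 (heart-2), and the 10 fibroblast genes -6.37 and -6.19. Marker lists of the labelled samples overlap these lists and are no independent check of the direction: 6 of 12 cardiomyocyte markers and 8 of 10 fibroblast markers are on both. The 12 cardiomyocyte markers lay between 5.06 and 11.24, led by Pln (11.24), Mybpc3 (9.66), Hrc (8.26) and Myl7 (7.31), and the 10 fibroblast markers between -9.49 and -3.33, with Lox (-9.49), Col1a1 (-7.38), Fn1 (-6.32) and Col1a2 (-6.24) the lowest. No array had its dyes exchanged, so a probe's bias for one dye stays in its ratio. Channel intensities were not used here, so it could not be judged whether a probe was near background or saturated, and ratios of different genes say nothing about which transcript was more abundant. In whole heart, as in any bulk RNA, fewer cells of a type and less RNA per cell cannot be told apart.

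Troponin is the calcium switch of striated muscle. It sits on the actin and tropomyosin filament as a complex of 3 subunits: troponin C binds calcium, troponin I holds contraction off until calcium arrives, and troponin T anchors the complex to tropomyosin. Each subunit is encoded by paralogs used in different muscles. Heart uses Tnnt2, Tnni3 and Tnnc1. Slow skeletal fibres use Tnnt1, Tnni1 and the same Tnnc1. Fast skeletal fibres use Tnnt3, Tnni2 and Tnnc2. The embryonic heart also uses Tnni1, which Tnni3 replaces around and after birth, and embryonic skeletal muscle transiently uses Tnnt2.

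The gene means ran from cardiac to slow to fast, but the probes of the slow gene Tnni1 lay on either side of the fast genes Tnni2 and Tnnc2. The 3 genes used in adult heart lay between 6.82 and 8.13, among the 57 highest ratios of all 19532 genes. The 2 other slow-fibre genes lay at 2.94 and 1.09, the second a mean of probes at 2.98 and -0.80, and the 3 fast-fibre genes between -1.40 and 0.48. By limma's moderated test against no difference, 7 of the 8 genes were called higher in heart and 1, Tnnt3, lower, against 33.8% of all genes called higher and 39.3% called lower. Were the ratio to run the other way, the adult heart genes would be among the 57 lowest, and 7 members would be called lower and 1 higher, against 39.3% of all genes higher and 33.8% lower. Since 73.1% of all genes passed this test in one direction or the other, size separates the members more than the call does. Over 32-fold higher on both arrays were 3 of the 8 members, against 1.29% of all genes, over 4-fold higher were 4, against 8.99%, and over 2-fold higher were 5, against 18.1%. Over 2-fold lower on both arrays was 1 member, against 18.5% of all genes. Limma's treat test, which asks for more than a 2-fold change, called 4 members higher and 1 lower, against 15.1% and 14.6% of all genes.

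**Figure D1:**
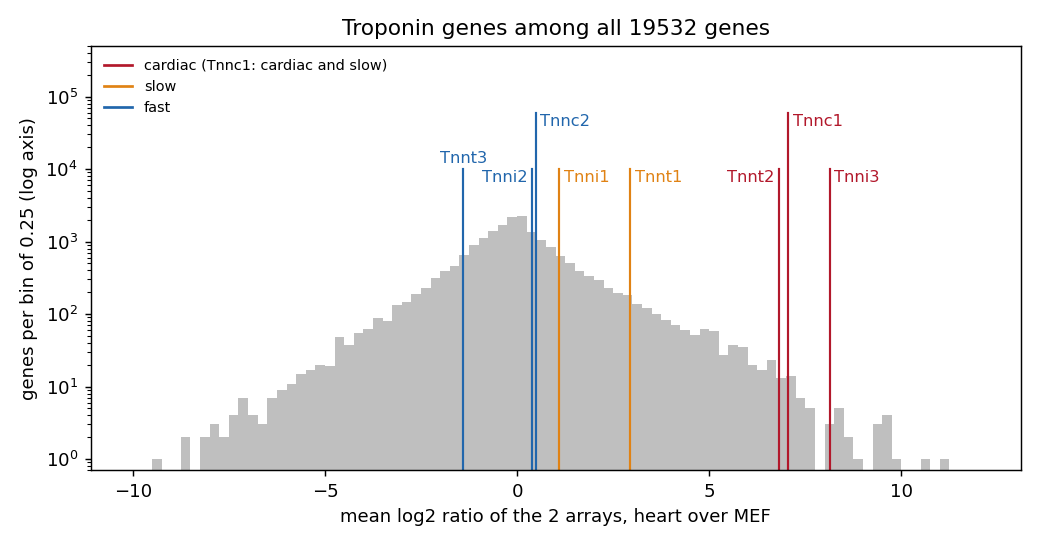
Histogram of the mean log2 ratio, heart over MEF, of all 19532 genes in bins of 0.25 (logarithmic vertical axis), with a line at each troponin gene. The cardiac genes lie in the far right tail at 6.82 to 8.13, the slow genes at 1.09 and 2.94, and the fast genes between -1.40 and 0.48 in the bulk of the distribution.

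Promoter sequences are shown for the 3 genes that lay together at the top, and for Tnnc2, the fast-muscle paralog of Tnnc1. Of the 8 genes, 6 had a promoter in the RefSeq table, of build GRCm38.p6. The 250 bases before the annotated start are printed 5′ to 3′ on the gene's own strand, with capitals marking CATTCC or its reverse complement GGAATG, the muscle CAT (MCAT) element first described in the chicken cardiac troponin T promoter. The windows are chr1:135836084-135836333 (plus strand) for Tnnt2, chr7:4522529-4522778 (minus strand) for Tnni3, chr14:31208062-31208311 (plus strand) for Tnnc1 and chr2:164779735-164779984 (minus strand) for Tnnc2.
Tnnt2: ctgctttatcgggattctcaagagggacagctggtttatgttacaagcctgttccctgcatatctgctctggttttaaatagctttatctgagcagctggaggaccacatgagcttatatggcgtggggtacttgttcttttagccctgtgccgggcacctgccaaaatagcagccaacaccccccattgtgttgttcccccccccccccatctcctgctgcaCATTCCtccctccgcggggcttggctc
Tnni3: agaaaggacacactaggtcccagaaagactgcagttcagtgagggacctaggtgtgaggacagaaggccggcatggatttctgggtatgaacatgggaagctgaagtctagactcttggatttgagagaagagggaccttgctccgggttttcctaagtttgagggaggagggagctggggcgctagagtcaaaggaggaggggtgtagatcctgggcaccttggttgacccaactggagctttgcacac
Tnnc1: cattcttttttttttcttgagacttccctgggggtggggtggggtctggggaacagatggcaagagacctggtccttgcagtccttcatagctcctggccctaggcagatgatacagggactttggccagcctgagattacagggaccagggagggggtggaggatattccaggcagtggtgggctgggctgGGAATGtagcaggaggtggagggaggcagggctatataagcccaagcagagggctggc
Tnnc2: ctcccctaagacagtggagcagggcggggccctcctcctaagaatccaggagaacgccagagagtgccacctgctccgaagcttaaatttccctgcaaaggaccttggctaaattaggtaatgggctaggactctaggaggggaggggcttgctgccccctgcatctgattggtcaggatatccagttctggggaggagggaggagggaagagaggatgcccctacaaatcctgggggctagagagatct

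The MCAT letters were present in Tnnt2, with their first base 27 bases before the start, and in Tnnc1, on the opposite strand, 58 bases before it, so that 2 of the 6 member genes held them, against 12.6% of the 32851 windows in the table. AGATAA, searched on both strands as a GATA-factor motif, was found in Tnnt2 alone of the 6, against 10.0% of all windows. TATAAA, searched on the gene's strand, was found in Tnnt1 alone, 30 bases before the start, against 7.59% of all windows. The E-box CANNTG, which reads the same on both strands, was found in all 6 genes, against 66.2% of all windows. The MEF2 motif and the CArG box of serum response factor, both palindromic patterns, were in none of the members' windows and in 2.92% and 1.47% of all windows. These are letter matches in one short window each, and Tnnt2 and Tnni1 had a second annotated start each, whose windows held only E-boxes. A member gene counted if any of its windows, 8 for the 6 genes, held the letters. The background shares count single windows, so the units differ.

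Among the inhibitory subunits, Tnni3, cardiac troponin I, had the highest gene mean of the family. The Tnnt2 probe A_52_P430110, with a mean of 8.55, lay above both Tnni3 probes. Tnni3 probe A_51_P386983 read 8.07 on heart-1 and 8.19 on heart-2, and Tnni3 probe A_52_P563123 read 8.03 and 8.23. The 2 probes therefore gave the same ratio to within 0.003 in their means, a smaller range than in 99.8% of the 8511 genes with several probes. As a gene Tnni3 averaged 8.13 ± 0.11 (SD, n = 2 arrays; 280-fold higher in heart; limma adjusted p = 0.00136), the 19th highest of all genes. Cardiac troponin I carries an amino-terminal extension, absent from its skeletal paralogs, that protein kinase A phosphorylates during adrenergic stimulation.

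Tnni1, slow skeletal and fetal cardiac troponin I, gave opposite answers from its 2 probes. Probe A_52_P657360 was high in heart, at 3.03 on heart-1 and 2.94 on heart-2 (limma adjusted p over all probes 0.00221). Probe A_51_P435704 was low in heart, at -0.74 and -0.87 (limma adjusted p = 0.00837). Each probe repeated its own value closely on both arrays, and the platform annotation ties both to the same RefSeq mRNA. The gap between them, 3.79, is wider than in all but 4.96% of genes with several probes, although 39.1% of such genes had probes of opposite sign. Their mean of 1.09 ± 0.08 (SD, n = 2; 2.13-fold; limma adjusted p = 0.00346) was called higher, and neither probe lies near that mean. The sequences of the probes were not used here, so which part of the transcript each one reads was not tested.

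Tnni2, fast skeletal troponin I, differed little between the samples. Its 1 probe read 0.40 on heart-1 and 0.39 on heart-2, a mean of 0.39 ± 0.01 (SD, n = 2; 95% moderated interval 0.26 to 0.53). The gene passed limma against no difference (adjusted p = 0.00938) at 1.31-fold. It did not pass limma's treat test against a 2-fold change (adjusted p = 1). Its place relative to 0 depends on a zero of the ratio that the deposited values leave unsettled. The array medians were 0.07 on heart-1 and -0.14 on heart-2, although the median probe difference, heart-1 minus heart-2, was 0.001.

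Among the tropomyosin-binding subunits, Tnnt2, cardiac troponin T, was high in heart by both probes, but by different amounts. Probe A_52_P430110, annotated through a cDNA clone, read 8.21 on heart-1 and 8.89 on heart-2. Probe A_51_P338262, annotated through the RefSeq mRNA, read 5.06 and 5.12. The first corresponds to 375-fold and the second to 34.1-fold, and a gap of 3.46 between probes is exceeded in 6.16% of genes with several probes. The clone-annotated probe also had the largest difference between arrays in the family, 0.68, which 7.21% of all probes exceed. The gene mean was 6.82 ± 0.26 (SD, n = 2; 113-fold; limma adjusted p = 0.00141), the 57th highest of all genes. Tnnt2 is spliced into several isoforms whose proportions change during development, and which of them each probe reads was not tested.

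Tnnt1, slow skeletal troponin T, was also higher in heart. Its 1 probe read 2.90 on heart-1 and 2.98 on heart-2, a mean of 2.94 ± 0.06 (SD, n = 2; 7.69-fold; limma adjusted p = 0.00136), the 1005th highest of all genes. This lies near the higher of the 2 Tnni1 probes, 2.98, and below the lower of the 2 Tnnt2 probes, 5.09.

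Tnnt3, fast skeletal troponin T, was the member called lower in heart. Probe A_51_P345699 read -0.95 on heart-1 and -1.08 on heart-2, and probe A_52_P622418 read -1.74 and -1.84. Both probes were thus below 0 on both arrays. The mean was -1.40 ± 0.08 (SD, n = 2; 2.64-fold lower in heart; limma adjusted p = 0.00255), and the gene also passed treat against a 2-fold change. By probe, A_52_P622418 passed treat (limma treat adjusted p = 0.00927) and A_51_P345699 did not.

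Of the calcium-binding subunits, Tnnc1, the troponin C of heart and slow muscle, was among the highest ratios and Tnnc2, the troponin C of fast muscle, was near equal in heart and MEF. The 1 Tnnc1 probe read 6.99 on heart-1 and 7.11 on heart-2, a mean of 7.05 ± 0.09 (SD, n = 2; 132-fold; limma adjusted p = 0.00136), the 44th highest of all genes. The 1 Tnnc2 probe read 0.40 on heart-1 and 0.57 on heart-2, a mean of 0.48 ± 0.12 (SD, n = 2; 1.40-fold; 95% moderated interval 0.22 to 0.74). Tnnc2 passed limma against no difference (adjusted p = 0.0208) and did not pass treat against a 2-fold change (adjusted p = 1).

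**Figure D2:**
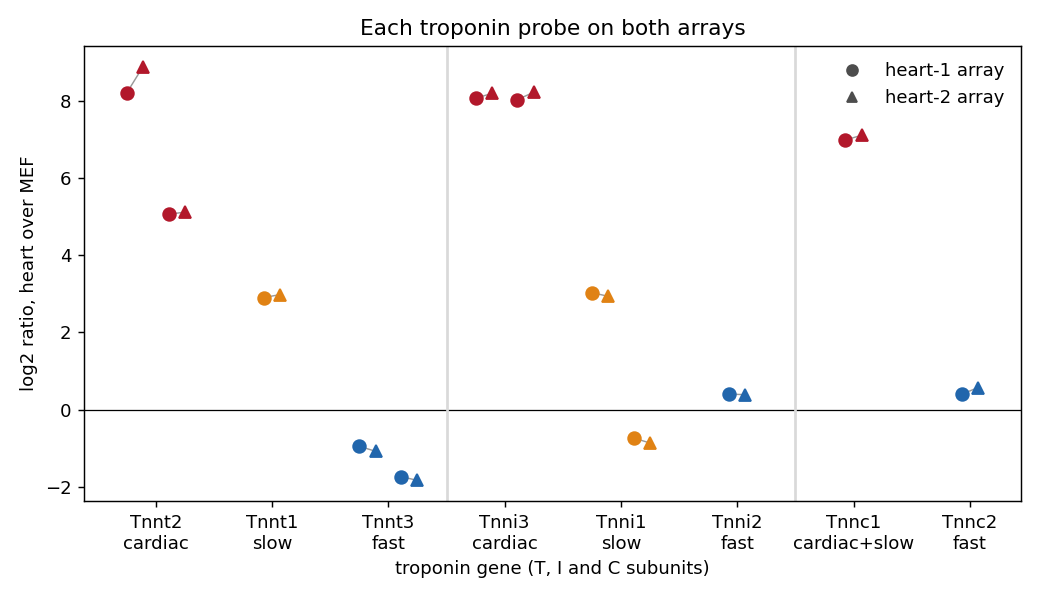
Log2 ratio, heart over MEF, of each of the 12 troponin probes, with circles for heart-1 and triangles for heart-2, grouped by subunit T, I and C and coloured by muscle type. The probes of Tnni3 lie together near 8.1, those of Tnnt2 are 3.46 apart, and those of Tnni1 lie on opposite sides of 0.

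All 12 probes had the same sign on both arrays. The arrays differed by 0.01 to 0.37 in the 8 gene values, against an SD of 0.32 for the difference between arrays over all genes. The share of all probes with a larger gap between arrays ran from 7.21% for a Tnnt2 probe to 90.6% for the Tnni2 probe. For the other member probes it lay between 36.2% and 66.0%. None of the 12 fell into the narrow spike of near-constant values that each array holds, between 0.1 and 0.2 on heart-1 and between -0.22 and -0.08 on heart-2. By probe, 9 of the 12 were called higher and 3 lower with limma, against 31.2% and 35.3% of all probes, 66.5% in either direction.

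Set against each other within a subunit, the paralogs differed by more than the arrays did in all 7 pairs. These are differences between log2 ratios, not between transcript levels. With 2 arrays an exact sign-flip permutation test cannot give a two-sided p below 0.5, which is what all 7 pairs gave, so the sizes are given with their spread and without a call. The heart-over-MEF ratio of Tnni3 exceeded that of Tnni2 by 7.65 on heart-1 and 7.82 on heart-2 (mean 7.74 ± 0.12, SD, n = 2), a 213-fold difference in fold. Tnnt2 exceeded Tnnt3 by 7.98 and 8.46 (8.22 ± 0.34), and Tnnc1 exceeded Tnnc2 by 6.59 and 6.54 (6.57 ± 0.04). As gene means the 3 cardiac-to-fast distances ran from 6.57 to 8.22, and over the probes that of Tnnt2 minus Tnnt3 ran from 6.11 to 10.34.

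The cardiac genes also lay above their slow paralogs. Tnni3 exceeded Tnni1 by 6.91 on heart-1 and 7.18 on heart-2 (7.04 ± 0.19, SD, n = 2), and by 5.15 when the lowest Tnni3 probe is set against the highest Tnni1 probe. Tnnt2 exceeded Tnnt1 by 3.73 and 4.02 (3.88 ± 0.21), and by 2.15 for the lower Tnnt2 probe. Between slow and fast the subunits were unlike. Tnnt1 exceeded Tnnt3 by 4.25 and 4.44 (4.34 ± 0.14), whereas Tnni1 exceeded Tnni2 by 0.75 and 0.65 (0.70 ± 0.07). The Tnni1 probes put that second difference anywhere from -1.20 to 2.59, the only one of the 7 pairs in which the choice of probe turned the sign.

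**Figure D3:**
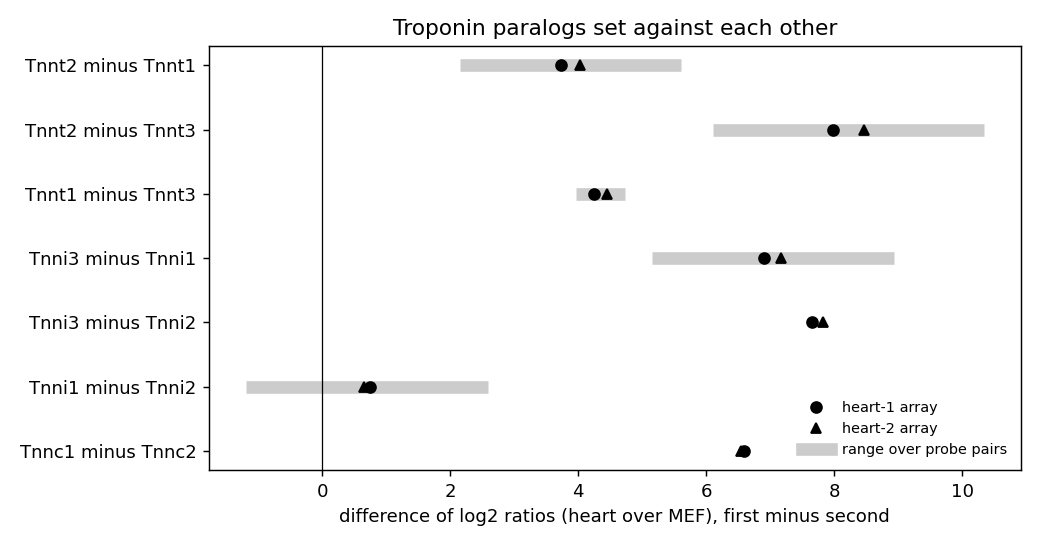
Difference of the log2 ratios (heart over MEF) of 2 paralogs, first minus second, with circles for heart-1, triangles for heart-2 and a grey bar for the range over all pairs of their probes. All 7 differences are above 0 on both arrays, and only the bar of Tnni1 minus Tnni2, from -1.20 to 2.59, crosses 0.

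In order of their ratios the genes ran Tnni3, Tnnc1, Tnnt2, Tnnt1, Tnni1, Tnnc2, Tnni2 and Tnnt3. Neighbours in this order differed by more than 2 SD of the difference between arrays, with 2 exceptions. Tnnc1 lay above Tnnt2 by 0.23 ± 0.18 and Tnnc2 above Tnni2 by 0.09 ± 0.13 (SD, n = 2 each), and the sign of that last difference was not the same on both arrays. The place of Tnnt2 and Tnni1 in the order depends on their probes. The genes whose 2 array values lay closest to those of Tnni3 were Pygm, muscle glycogen phosphorylase, Hrc, a calcium-binding protein of the sarcoplasmic reticulum, and Clec1b, a receptor of platelets, with mean absolute differences of 0.09, 0.13 and 0.17 over the 2 arrays. Those closest to Tnnt3 were Polm, a DNA polymerase, Fdps, an enzyme of isoprenoid synthesis, and Hspa2, a chaperone, at 0.006, 0.008 and 0.01. Likeness over 2 arrays of one comparison is only likeness in size.

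Troponin I and T genes lie side by side in the mouse genome, and genes of a pair had unlike ratios. In the order of RefSeq genes Tnnt1 and Tnni3 are adjacent on chromosome 7, Tnni1 and Tnnt2 have 1 gene, Lad1, between them on chromosome 1, and Tnni2 and Tnnt3 have 2 genes between them, elsewhere on chromosome 7. Tnni3 exceeded its neighbour Tnnt1 by 5.15 on heart-1 and 5.23 on heart-2 (5.19 ± 0.06, SD, n = 2). Tnnt2 exceeded Tnni1 by 5.49 and 5.97 (5.73 ± 0.34). That SD leaves out the probes, which lay at 5.09 and 8.55 for Tnnt2 and at -0.80 and 2.98 for Tnni1. In the fast pair Tnni2 exceeded Tnnt3 by 1.74 and 1.85 (1.80 ± 0.07). The first and second of these pairs each join a cardiac with a slow gene, and the third joins the 2 fast genes.

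Other genes of slow and fast fibres were set beside the troponins. Of 10 genes shared by slow fibres and heart 9 rose and 1 did not pass (median 5.92), against 33.8% of all genes called higher and an all-gene median of -0.04. The list was led by Csrp3, a Z-disc protein, at 6.55 ± 0.05, Myl2, the ventricular and slow regulatory myosin light chain, at 6.52 ± 0.03, Myl3, the matching essential light chain, at 6.24 ± 0.07 and Myoz2, a Z-disc protein, at 6.23 ± 0.02 (SD, n = 2). The 2 Myl3 probes lay at 5.23 and 7.26 and the 2 Myoz2 probes at 5.45 and 7.01. Tpm3, slow tropomyosin, which is also made in non-muscle cells, did not pass at -0.16 ± 0.07, over 3 probes from -1.84 to 2.00. In this list 8 of 10 genes lay above Tnnt1.

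Genes of fast fibres were mixed, and several were far above the fast troponins. Among 13 genes, 9 rose (69.2%), 2 fell (15.4%) and 2 missed the threshold (median 2.00), against 33.8% higher and 39.3% lower over all genes, and 6 were over 4-fold higher on both arrays, against 8.99% of all genes. Myl1, the fast essential myosin light chain, stood at 6.28 ± 0.13, Myh4, the type IIb myosin heavy chain, at 5.33 ± 0.19, Mybpc2, fast myosin-binding protein C, at 5.17 ± 0.09 and Pvalb, the calcium buffer parvalbumin, at 3.66 ± 0.15 (SD, n = 2). The 2 Myl1 probes lay at 4.94 and 7.62 and the 2 Myh4 probes at 4.52 and 6.15. Actn3, the fast-fibre actinin, fell to -1.83 ± 0.03, and Myh1, the type IIx heavy chain, did not pass at -0.38 ± 0.34. In this list 8 of 13 genes lay above Tnnc2, the highest fast troponin.

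Markers of skeletal muscle, a tissue that either sample could hold a little of, were looked at as a whole list. Of 20 markers, 11 of them also on the fast-fibre list, 11 rose (55.0%), 6 fell (30.0%) and 3 did not pass, against 33.8% and 39.3% of all genes, with means from -1.83 to 5.33 and medians of 0.59 on heart-1 and 0.77 on heart-2. Its largest ratios were those of Myh4, Mybpc2 and Pvalb given above and of Atp2a1, the calcium pump of fast fibres, at 3.23 ± 0.10 (SD, n = 2), over 2 probes at 1.00 and 5.46. Against these, Actn3 fell as given above and Myod1, the myoblast regulator, fell to -1.04 ± 0.05. Their part in the slow and fast troponin ratios was not tested. Of 8 smooth muscle markers 3 rose (37.5%) and 5 fell (62.5%), with Tagln at -4.76, Cnn1 at -4.44, Lmod1 at -2.76, Actg2 at 0.57 and Myh11 at 1.61.

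Partners of troponin on the thin filament went both ways. Among 16 genes, 11 rose (68.8%), 4 fell (25%) and 1 missed the threshold, with a median of 1.65, against 33.8% higher and 39.3% lower over all genes. The highest were the filament-length regulators Lmod2 (8.06 ± 0.16), Tmod1 (6.88 ± 0.06), Lmod3 (6.67 ± 0.11) and Tmod4 (6.66 ± 0.08; SD, n = 2 each), of which Lmod2 came close to Tnni3. Tpm2, the beta tropomyosin, fell to -3.15 ± 0.02 and Lmod1, the smooth muscle leiomodin, to -2.76 ± 0.06. The other tropomyosins were not of 1 direction. Tpm1 was called higher at 0.61 ± 0.06, over 4 probes from -4.53 to 6.49, Tpm4 was called lower at -1.32 ± 0.03, and Tpm3 did not pass.

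Genes that bring calcium to troponin and remove it were mostly higher in heart. Among 16 genes, 14 rose (87.5%), 1 fell (6.25%) and 1 missed the threshold, with a median of 3.55, against the same 33.8% and 39.3%. Pln, phospholamban, which restrains the calcium pump, stood at 11.24 ± 0.03, Hrc at 8.26 ± 0.02, Trdn, triadin of the calcium release complex, at 7.21 ± 0.01 and Sln, sarcolipin, another pump inhibitor, at 6.96 ± 0.09 (SD, n = 2). The 4 Trdn probes ranged from 5.52 to 9.04. Fkbp1b, a partner of the ryanodine receptor, fell to -3.13 ± 0.01. Pln, Hrc, Ryr2 and Cacna1c of this list are also on the heart list from which the direction of the ratio was read. Their sign is therefore no separate result.

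Kinases, phosphatases and their subunits, listed for a possible part in troponin phosphorylation, showed no common direction. Whether each acts on troponin was not tested. Among 19 measured genes, 7 rose, 8 fell and 4 missed the threshold (median -0.15). The shares of 36.8% higher and 42.1% lower stand beside 33.8% and 39.3% over all genes. Tnni3k, a cardiac kinase named for its binding to troponin I and not itself a troponin, rose to 4.22 ± 0.11. The myosin phosphatase subunits Ppp1r12b and Ppp1cb rose to 2.38 ± 0.11 and 2.21 ± 0.03, the 4 Ppp1r12b probes ranging from 0.55 to 4.28, and Prkcd, protein kinase C delta, fell to -2.32 ± 0.04 (SD, n = 2).

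Transcription factors and cofactors of heart or skeletal muscle, listed as possible regulators of troponin genes, went both ways. Whether each acts on a troponin gene was not tested. Among 19 measured genes, 10 rose (52.6%), 8 fell (42.1%) and 1 missed the threshold, with a median of 0.36, the share that fell being close to the 39.3% of all genes and the share that rose standing beside 33.8%. Nkx2-5, a homeobox factor of heart, rose to 5.06 ± 0.16, Myocd, the myocardin coactivator of serum response factor, to 3.75 ± 0.06 and Hand2, a factor of the developing heart, to 3.11 ± 0.03 (SD, n = 2). Nkx2-5 is also on the heart list from which the direction of the ratio was read. The 3 Myocd probes ranged from 2.23 to 6.59. Tead2, of the family that binds the MCAT letters printed above, fell to -2.74 ± 0.00, with the 2 arrays equal to 2 decimals, and Gtf2ird1, described as binding an enhancer of the human slow troponin I gene, fell to -2.49 ± 0.03.

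The 11 splicing factors were listed for a possible part in splicing troponin T or other cardiac transcripts. Whether each acts on them was not tested. Of the 11, 6 rose (54.5%), 3 fell (27.3%) and 2 did not pass, against 33.8% and 39.3% of all genes. The list's median was 0.31. Rbm24 and Rbm20, RNA-binding proteins of heart and skeletal muscle, rose to 6.62 ± 0.15 and 5.82 ± 0.01 and Rbfox1 to 3.77 ± 0.02 (SD, n = 2). Ptbp1, a splicing repressor made in most non-muscle cells, fell to -2.54 ± 0.41 and Rbfox2 to -0.87 ± 0.04. These values are of total transcript per factor and carry no measure of how troponin T itself was spliced.

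**Figure D4:**
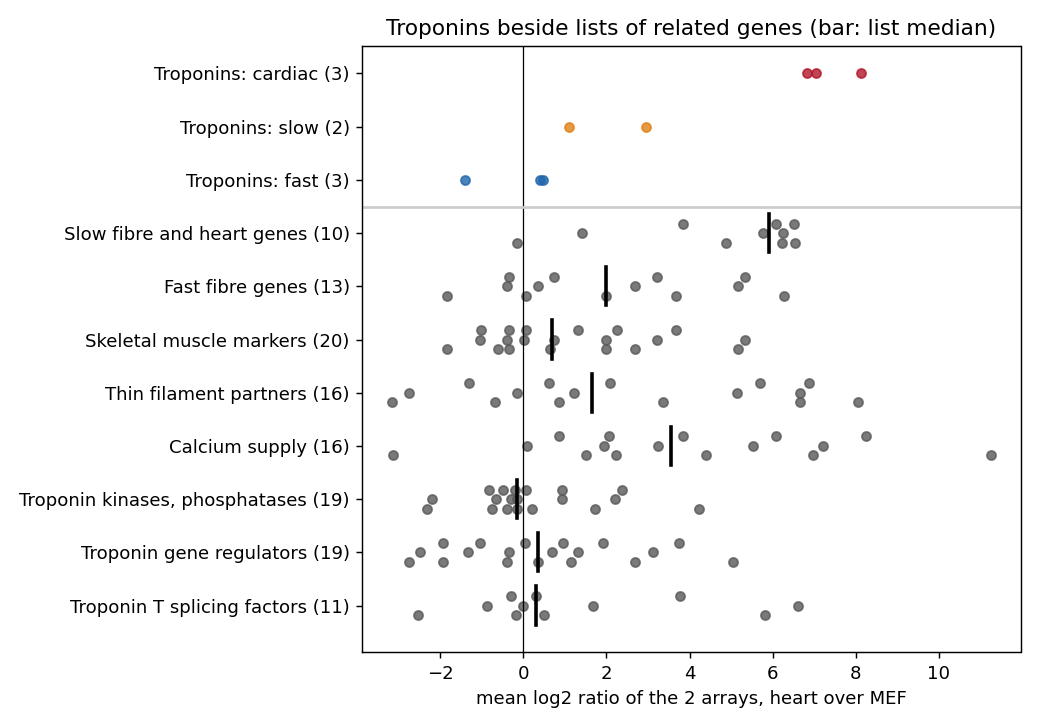
Mean log2 ratio, heart over MEF, of the troponin genes by muscle type (coloured) and of the genes of 8 related lists (grey), with a bar at each list's median and the number of genes in brackets. The slow fibre and heart genes have a median of 5.92, the fast fibre genes spread from -1.83 to 6.28, and the fast troponins stay between -1.40 and 0.48.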

How the data were processed

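The authors deposited 1 value per probe and array, taken as a log2 ratio of the 2 channels because the log base is not stated and the largest values are too large for another base. Per the submitters' processing notes, scans were read with Agilent Feature Extraction (background correction, normalization, filters: not given in the sources used here). Probes with 1 gene symbol (32664) were averaged per gene and array. Each gene's mean ratio, and separately each probe's, was set against 0 by limma (version 3.58.1, under R version 4.3.3; functions lmFit and eBayes, two-sided, Benjamini-Hochberg adjusted p under 0.05 over the whole table); tables were joined in Python 3.11.15. With 1 residual degree of freedom the test leaned on a prior SD of 0.0655 with 1.25 degrees of freedom. The fit was also run on data simulated from its own estimated prior, which cannot show whether that prior suits these arrays. Errors are SDs over the 2 arrays, whose number limits the precision, and omit the spread between probes and between MEF cultures. The members and gene lists were chosen with earlier results of these data known. From each list the 4 largest absolute ratios and up to 2 against the majority were named, the lists that set the direction being given by their medians. Tpm1, Tpm4, Ryr2 and Cacna1c were named besides. Tnnc1 is counted with the cardiac genes. Alternatives covered centring, scaling, the probe rule, the variance prior and the size tested.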

Additional observations from a re-analysis of the deposited data

How the results depend on the processing

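Of the alternatives run, centring or scaling the arrays and taking the strongest probe could move the troponin ratios, and all 8 genes kept their direction and call under each. The strongest probe was the one with the largest absolute ratio, so for Tnni1 that rule took the probe at 2.98. The Tnni1 probe at -0.80, itself called lower (limma adjusted p over all probes 0.00837), was passed over, so the kept call of Tnni1 does not speak for both probes. After centring or scaling, limma's estimated prior had infinite degrees of freedom, so every gene was given the same SD, 0.269 or 0.277, in place of its own; the calls kept there rest on that shared SD, with Tnni2 (limma adjusted p = 0.0367 and 0.0421) nearest the threshold. The median of the probes, probes in the spike and probes with several symbols could not move them, since no member has over 2 probes, 0 member probes lie in the spike and 0 probes of several symbols name a member. A robust variance prior, no shared variance and treat against a 2-fold change alter only the test; the robust prior ended no call among the 8. With no shared variance, limma's per-gene test with 1 degree of freedom called 4 troponin genes higher and 0 lower, and 25 list genes lower in place of 44; unadjusted p-values under 0.05 were then found for 6 higher genes and 1 lower gene. Tnnt2 (adjusted p = 0.0517), Tnnt3 (0.0628), Tnni1 (0.0706) and Tnnc2 (0.159) lost their calls there, since less information on the variance enters. Over all genes that setting called 2921 higher and 3210 lower, in place of 6598 and 7685, and it called 0 of the 3 lower probes, against 2 at an unadjusted p under 0.05. Treat, which asks for more than a 2-fold change, called 2947 genes higher and 2850 lower, 4 troponin genes higher, 1 lower troponin probe and 27 list genes lower. Tnni1 (limma treat adjusted p = 0.292), Tnni2 and Tnnc2 were the genes that lost their calls under it. As a probe, Tnni2 also missed the threshold after centring (limma adjusted p = 0.0684) and after scaling (0.0746). Taking the strongest probe moved Tnnt2 minus Tnnt1 to 5.61, Tnnt2 minus Tnnt3 to 10.34, Tnnt1 minus Tnnt3 to 4.73, Tnni3 minus Tnni1 to 5.15 and Tnni1 minus Tnni2 to 2.59; the other 2 paralog differences stayed within 1 SD. Leaving out either array leaves values with no test, which are the single-array values given above. No paired analysis was possible because both arrays belong to 1 group and the MEF channel carries no number of its own.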

Other observations

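Genes around the troponins on the chromosome went both ways. On chromosome 1 Lad1, between Tnni1 and Tnnt2, rose to 2.85 ± 0.05, while Phlda3 and Csrp1, on the far side of Tnni1, fell to -2.73 ± 0.05 and -2.28 ± 0.05, and Pkp1, beyond Tnnt2, fell to -1.01 ± 0.05 (SD, n = 2 arrays each). Beside the fast pair on chromosome 7, Syt8, a synaptotagmin, rose to 4.06 ± 0.08, Lsp1, a leukocyte actin-binding protein that lies between Tnni2 and Tnnt3, fell to -1.69 ± 0.00 with the 2 arrays equal to 2 decimals, and Mrpl23, of the mitochondrial ribosome, rose to 1.59 ± 0.06. Next to Tnnc1, Nisch fell to -0.72 ± 0.05, and next to Tnnc2, Ube2c, of the mitotic ubiquitin machinery, fell to -1.17 ± 0.13. Smaller changes were those of Syt5 (0.51 ± 0.07), Acot8 (0.40 ± 0.05), Phf7 (-0.47 ± 0.07) and Snx21 (-0.31 ± 0.08), and Igfn1 (1.14 ± 0.75) and Ppp1r12c (0.28 ± 0.12) did not pass.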
